A study of Mus musculus with 10 samples.

Results

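A set of 43 genes of skeletal muscle, found by gene symbol among 24358 rows per library, was followed across 10 RNA sequencing libraries of mouse skin. All 43 symbols were present, and all 43 passed the filter on low counts in each comparison. By role, 11 encode parts of the fast-fibre sarcomere, 7 parts of the slow-fibre sarcomere and 11 shared or developmental sarcomere proteins. The other 14 lie outside the sarcomere: 6 act in calcium handling and excitation, and 8 are metabolic enzymes or other enzymes. Each library came from full-thickness dorsal skin of a C57Bl/6 mouse, and each mouse gave 1 lesional and 1 uninvolved biopsy. The mice labelled IL-17C+KO were 2392 and 2465, and the IL-17C+ mice were 2237, 2275 and 2296. By the series title the knocked-out gene is interleukin-6, and all 5 mice carry the interleukin-17C transgene, so every library comes from a mouse of a psoriasiform skin model and there was no wild-type skin. The labels name no promoter for the transgene. Mice were 10 or 14 weeks old, and the labels do not say which mouse had which age. Replicates were separate mice.

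Mouse dorsal skin lies on a thin sheet of skeletal muscle, the panniculus carnosus, which a full-thickness biopsy can include. Muscle fibres contract when calcium released from the sarcoplasmic reticulum lets myosin pull on actin, and fast and slow fibres use different isoforms of myosin heavy chain, light chain, troponin and other sarcomere proteins. Among fast myosins, Myh2, Myh1 and Myh4 mark type 2A, 2X and 2B fibres, in order of increasing contraction speed, and Myh7 marks slow, type 1 fibres. In RNA from whole biopsies, fewer muscle cells and less RNA per muscle cell cannot be told apart.

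Libraries held 21056850 to 31072491 counts, so that a count of 0 allows a level of up to 0.0965 to 0.142 CPM (counts scaled to a common library size; 3 counts). Il6 had 315 and 300 counts in lesional and 71 and 55 in uninvolved libraries labelled IL-17C+KO, against 26, 18 and 69 in lesional and 9, 4 and 6 in uninvolved IL-17C+ libraries. These counts go against the knockout label, and which part of the gene they cover was not tested. All genotype comparisons therefore refer to the libraries labelled IL-17C+KO. The uninvolved library of mouse 2237 and the lesional library of mouse 2296 stood apart from the other 8 by transcript length. Genes with a longest transcript over 10000 bases had a median deviation of -0.805 and -0.60 on the log2 CPM scale from their own means in these libraries, and genes of up to 1000 bases 0.68 and 0.32. In the other 8 libraries these medians lay between 0.09 and 0.28 for the long and between -0.24 and 0.04 for the short genes. Values of long members such as Ttn, Neb, Ryr1 and Xirp2 in mice 2237 and 2296 carry this shift.

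**Figure D1:**
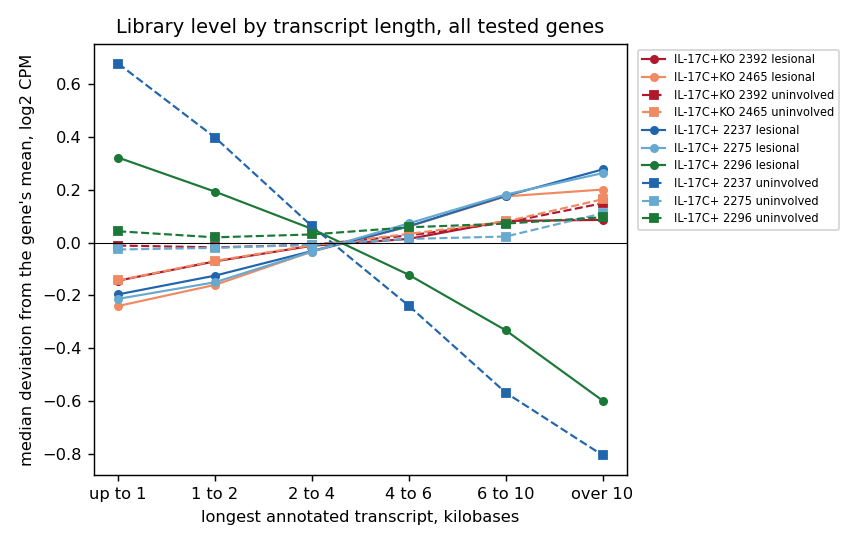
Median deviation of all tested genes from their own mean over 10 libraries (log2 CPM, vertical axis) by length of the longest annotated transcript (kilobases, horizontal axis), with 1 line per library; circles and solid lines are lesional, squares and broken lines uninvolved libraries. The uninvolved library of mouse 2237 and the lesional library of mouse 2296 run from 0.68 and 0.32 at up to 1 kilobase to -0.805 and -0.60 over 10 kilobases, against -0.24 to 0.28 over all classes in the other 8.

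The 43 genes together took a smaller share of the reads in lesional than in uninvolved skin in 4 of 5 mice. In the libraries labelled IL-17C+KO they made up 0.821% (mouse 2392) and 0.142% (2465) of the counts in lesional skin, against 4.79% and 7.91% in uninvolved skin of the same mice. In IL-17C+ mice they made up 1.19% (2237), 0.708% (2275) and 0.488% (2296) in lesional skin, against 0.951%, 5.78% and 2.05% in uninvolved skin. Mouse 2237 was the exception, with low shares in both biopsies, and its uninvolved library also held more Il17c (13936 CPM) than any other. The shares of uninvolved skin spanned 0.951% to 7.91% and those of lesional skin 0.142% to 1.19%, so single biopsies differed widely within each skin type, and the uninvolved library of mouse 2237 lay inside the lesional range.

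**Figure D2:**
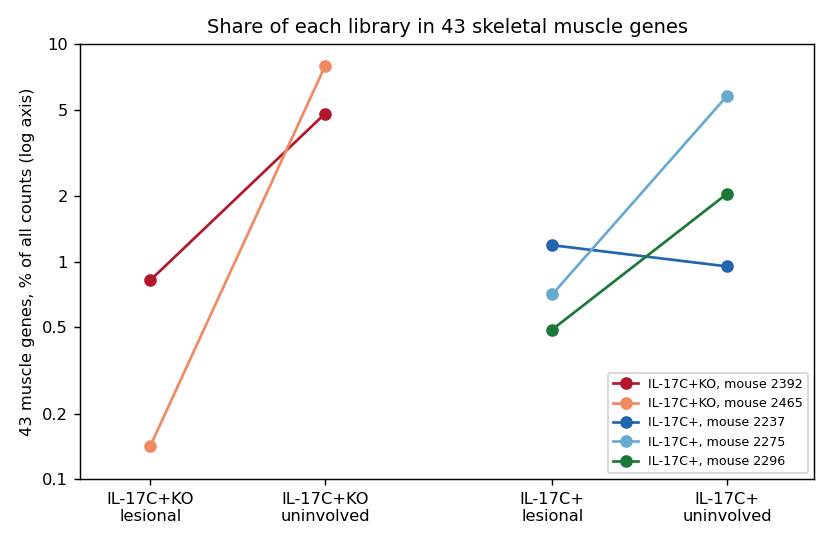
Percent of all counts in the 43 muscle genes (logarithmic vertical axis) in lesional and uninvolved skin of the libraries labelled IL-17C+KO and of IL-17C+ mice, with 1 line per mouse. The lesional value lies below the uninvolved one in mice 2392, 2465, 2275 and 2296, and above it in mouse 2237 (1.19% against 0.951%).

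In lesional skin labelled IL-17C+KO, every muscle gene had a lower fitted level than in uninvolved skin of the same mice, and 1 of them, Csrp3, passed the test. The median log2 change over the 43 genes was -4.12, with a range of -6.02 to -0.26, against 0.00 over all 16083 genes tested. With edgeR's quasi-likelihood test and Benjamini-Hochberg adjustment, 2 genes passed an adjusted p of 0.05 (0.0124% of those tested), Cxcl5 and Csrp3. DESeq2 called 1157 genes in the same comparison, 32 of them muscle genes, and limma-voom called 2, of which 1 was a muscle gene. At an unadjusted p under 0.05, 34 of the 43 were lower, where 7.31% of all genes were, and none was higher (6.16% of all genes). Fitted values were negative for 49.8% of all genes. In both mice 38 of the 43 were lower, where 34.7% of all genes were, and for 38 the skin types did not overlap with lesional skin lower, where 27.9% of all genes were so. The size differed between the mice: the median log2 difference per mouse was -2.50 in mouse 2392 and -5.73 in mouse 2465, and the fitted median was -5.76 without mouse 2392 and -2.50 without mouse 2465.

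In lesional skin of IL-17C+ mice 37 of the 43 genes had a lower fitted level than in uninvolved skin, and none passed the adjusted test. The median log2 change was -1.53, with a range of -3.69 to 1.31, against -0.02 over all genes. None of the 16083 genes passed with edgeR (0% of those tested; 1031 had an unadjusted p under 0.05), and none with limma-voom, while DESeq2 called 247, of which 6 were muscle genes (Myh1, Myh2, Mylpf, Mybpc1, Actn2 and Csrp3). At an unadjusted p under 0.05 12 of the 43 were lower, where 2.87% of all genes were, and none was higher (3.54% of all genes). Fitted values were negative for 51.5% of all genes. In all 3 mice 19 were lower, where 14.1% of all genes were. The skin types did not overlap with lesional skin lower for 17 of the 43 (8.18% of all genes), and with lesional skin higher for 0 of them (6.58% of all genes). The median log2 difference was -0.05 in mouse 2237, with 23 genes lower and 20 higher, -3.03 in mouse 2275 and -1.71 in mouse 2296. The fitted median was -2.42 without mouse 2237 and -0.71 without mouse 2275.

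**Figure D3:**
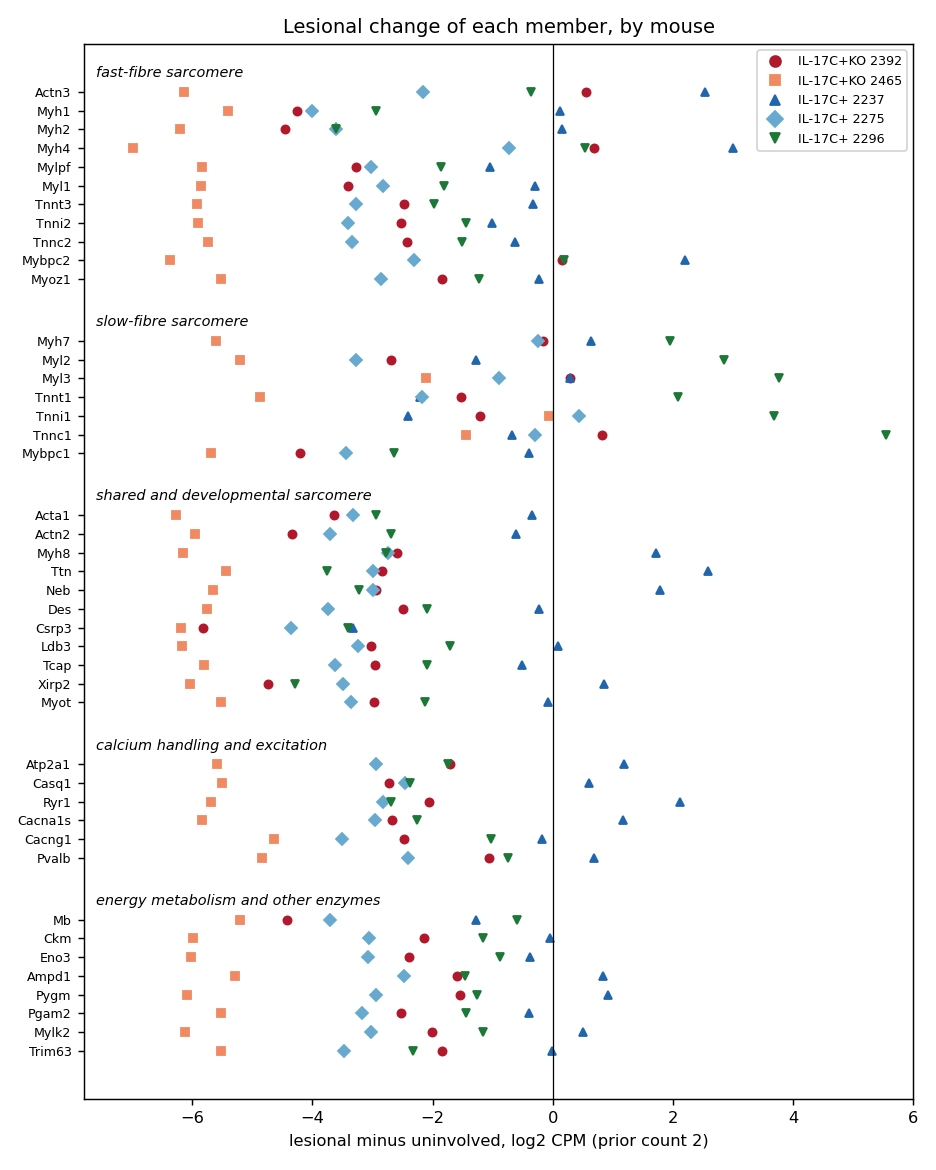
Lesional minus uninvolved level of each of the 43 genes (log2 CPM with a prior count of 2, horizontal axis) by role, with 1 symbol per mouse. Mouse 2465 (squares) lies furthest to the left for most genes, mouse 2237 (upward triangles) lies around 0, and the slow-fibre genes other than Mybpc1 lie to the right in mouse 2296 (downward triangles).

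Fast-fibre sarcomere genes were among the most abundant of the 43. Per transcript length, Acta1, the skeletal actin and a member of the shared class, had the highest mean level over the 10 libraries at 2800 FPKM (the deposited level, normalised to length and depth), followed by fast troponin I (Tnni2, 2025), fast troponin T (Tnnt3, 1732), fast troponin C (Tnnc2, 1624) and the fast regulatory light chain (Mylpf, 1563). In the libraries labelled IL-17C+KO, Mylpf had 225 and 46.3 CPM in lesional skin, against 2170 and 2645 CPM in uninvolved skin. IL-17C+ mice had 447 (2237), 279.5 (2275) and 277 (2296) CPM in lesional skin, against 922, 2283 and 1006 CPM in uninvolved skin. Lesional and uninvolved values of Mylpf did not overlap in either genotype. Its log2 change was -4.55 ± 0.86 (SE, edgeR, adjusted p = 0.20, n = 2 mice) for IL-17C+KO and -1.97 ± 0.62 (adjusted p = 0.71, n = 3 mice) for IL-17C+.

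Tnni2, the inhibitory troponin subunit of fast fibres, and Tnnt3, which ties troponin to tropomyosin, had log2 changes of -4.21 ± 1.08 and -4.20 ± 1.16 (SE, edgeR, adjusted p = 0.24 for each) in the libraries labelled IL-17C+KO. In IL-17C+ mice they had -1.93 ± 0.77 (edgeR adjusted p = 0.77) and -1.87 ± 0.84 (adjusted p = 0.79). Of the 11 fast-fibre genes, 8 were lower at an unadjusted p under 0.05 for IL-17C+KO, with a median log2 change of -4.20. In IL-17C+ mice 5 of the 11 were, with a median of -1.81. Over all genes, 7.31% were lower at that p for IL-17C+KO and 2.87% for IL-17C+. The 3 fast-fibre genes that stayed apart for IL-17C+KO were Myh4, Actn3 and Mybpc2, which are described with the myosins.

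Csrp3 encodes muscle LIM protein, which sits at the Z-disc and is known as part of the response of muscle to mechanical load. It had 17.8 and 3.48 CPM in lesional skin labelled IL-17C+KO, against 1013 and 258.5 CPM in uninvolved skin. Its levels in IL-17C+ mice were 12.6 (2237), 17.5 (2275) and 35.0 (2296) CPM in lesional skin, against 127, 359 and 371 CPM in uninvolved skin. Lesional and uninvolved values did not overlap in either genotype, and Csrp3 was the lowest of the 43 genes by fitted change in both genotypes. In mouse 2237 its log2 difference was -3.32, while the median over the 43 genes was -0.05.

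In lesional skin labelled IL-17C+KO, Csrp3 fell by 6.02 ± 0.45 on the log2 scale (SE, edgeR, adjusted p = 0.0387, n = 2 mice). The spread behind this SE and p was estimated over all 5 mice, IL-17C+ mice included. The call was lost without mouse 2296, 2392 or 2465 (edgeR adjusted p = 0.21, 0.16 and 0.63) and without the mouse block (adjusted p = 0.12). The log2 change lay between -6.22 and -5.68 in the alternatives run, with adjusted p from 2.837e-44 to 0.63. In IL-17C+ mice the log2 change was -3.69 ± 0.33 (edgeR adjusted p = 0.12, n = 3 mice). Csrp3 lies at chr7:48830398-48848033 on the minus strand of GRCm38 and shares no 50-base stretch with another annotated transcript. Its lowest count, 78 in lesional skin of mouse 2465, stands well above the limit of 3 counts. Relative to Acta1, Csrp3 had 4.12% and 3.96% of the FPKM value in lesional skin labelled IL-17C+KO, against 18.8% and 3.81% in uninvolved skin. For IL-17C+ mice the values were 1.72% (2237), 3.15% (2275) and 11.1% (2296) in lesional skin, against 13.6%, 6.41% and 15.2% in uninvolved skin. The ratio was lower in lesional skin in 4 of 5 mice, and in mouse 2465 both genes were low to a like extent.

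The promoter of Csrp3 is shown because this was the member that passed the test. Its sequence from RefSeq (GRCm38.p6), 250 bases before to 50 after the start that lies at the outer end of the gene, is printed with E-boxes in capitals, the sites (CANNTG, either strand) that myogenic factors such as MyoD are known to bind.
Csrp3, chr7:48848002-48848301, minus strand: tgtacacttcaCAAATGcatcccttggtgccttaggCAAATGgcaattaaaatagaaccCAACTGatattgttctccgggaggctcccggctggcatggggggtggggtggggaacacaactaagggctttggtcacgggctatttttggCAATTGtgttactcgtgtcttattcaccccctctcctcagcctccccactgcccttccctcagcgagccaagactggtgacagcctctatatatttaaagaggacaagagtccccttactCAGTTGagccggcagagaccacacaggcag
It holds 5 E-boxes, and a further RefSeq start of Csrp3 has 4 in its window. An E-box occurred in 85.37% of the 41 promoters found for 33 of the 43 genes and in 72.31% of all 32851 promoters, so the motif is common in both.

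The 11 shared sarcomere genes, Csrp3 included, were lower in the lesion of 4 mice, while in mouse 2237 6 were lower and 5 higher; apart from Csrp3 none passed the adjusted test. For IL-17C+KO all 11 had an unadjusted p under 0.05, with a median log2 change of -4.37. In IL-17C+ mice 5 of the 11 did, with a median of -2.03. Of all genes, 7.31% (IL-17C+KO) and 2.87% (IL-17C+) were lower at that p. Acta1 had 797 and 162 CPM in lesional skin labelled IL-17C+KO, against 9927 and 12500 CPM in uninvolved skin. In IL-17C+ mice Acta1 had 1357 (2237), 1024 (2275) and 581 (2296) CPM in lesional skin, against 1724, 10320 and 4485 CPM in uninvolved skin. Its log2 change was -4.95 ± 1.09 (SE, edgeR, adjusted p = 0.21) for IL-17C+KO and -2.27 ± 0.83 (adjusted p = 0.75) for IL-17C+. Lesional and uninvolved values of Acta1 did not overlap in either genotype.

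Actn2, an alpha-actinin that anchors thin filaments at the Z-disc, had a log2 change of -5.15 ± 0.89 (SE, edgeR, adjusted p = 0.19) for IL-17C+KO and -2.37 ± 0.68 (adjusted p = 0.66) for IL-17C+. Xirp2, an actin-binding protein of striated muscle, had -5.39 ± 1.33 (edgeR adjusted p = 0.23) and -2.59 ± 1.18 (adjusted p = 0.79). Tcap, the cap of titin at the Z-disc, had -4.37 ± 1.04 (edgeR adjusted p = 0.22) and -2.08 ± 0.78 (adjusted p = 0.76). Titin itself (Ttn) had -4.14 ± 1.66 (edgeR adjusted p = 0.36) and -1.93 ± 1.61 (adjusted p = 0.84). Ttn and Xirp2 are among the members with a transcript over 10000 bases. Their log2 differences in mouse 2237 were 2.58 and 0.85, and 1.52 and -0.20 once the median of tested genes of like length was subtracted. Over all 43 genes that subtraction, added after seeing the data, gave medians of -2.42 (2392), -5.73 (2465), 0.18 (2237), -3.04 (2275) and -1.78 (2296). In mouse 2237 it left 15 genes lower and 28 higher, against 23 lower and 20 higher without it.

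Des encodes desmin, the intermediate filament of muscle cells, and is also used by smooth muscle. It had 331 and 48.0 CPM in lesional skin labelled IL-17C+KO, against 1868 and 2597 CPM in uninvolved skin. In IL-17C+ mice it had 238 (2237), 142 (2275) and 222 (2296) CPM in lesional skin, against 279.7, 1903 and 948 CPM in uninvolved skin. The groups did not overlap in either genotype, and in mouse 2237 the values were closest. Acta2, the smooth muscle actin, had 122 and 116 CPM in lesional skin labelled IL-17C+KO, against 86.5 and 139 CPM in uninvolved skin, and 110, 116 and 106 CPM in lesional skin of IL-17C+ mice, against 127, 113 and 74.6 CPM in uninvolved skin. Acta2 overlapped between skin types. The list of 10 smooth muscle genes, Des included, had median log2 differences of 0.02 (2392), -0.72 (2465), 0.06 (2237), -0.92 (2275) and -0.15 (2296). Its genes differed among themselves: Synpo2, named after its values were seen, had -3.14 (2392), -4.34 (2465), 0.56 (2237), -2.98 (2275) and -2.69 (2296), and Lmod1, named likewise, had -1.18, -3.95, 0.02, -2.32 and 0.09 in the same order of mice.

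Slow-fibre genes were scarce in all libraries, with 1 exception. In FPKM, slow-fibre genes made up 0.868% to 3.28% of the sum over fast and slow genes, and Mybpc1 held more than the other 6 together in all but the lesional library of mouse 2296, where the other 6 held 54.2 of 75.1 FPKM. Mybpc1, named slow myosin-binding protein C, had 74.0 and 27.2 CPM in lesional skin labelled IL-17C+KO, against 1369 and 1407 CPM in uninvolved skin. IL-17C+ mice had 129 (2237), 105 (2275) and 92.5 (2296) CPM in lesional skin, against 169, 1133 and 578 CPM in uninvolved skin. Lesional and uninvolved values did not overlap in either genotype. Its log2 change, -4.95 ± 0.88 (SE, edgeR, adjusted p = 0.19) for IL-17C+KO and -2.20 ± 0.68 (adjusted p = 0.69) for IL-17C+, was of the size seen for fast genes.

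Without Mybpc1, the other 6 slow-fibre genes had mean levels between 0.60 FPKM (Myh7) and 12.5 FPKM (Myl2) over the 10 libraries. Tnnc1, the slow and cardiac troponin C, had 40 and 4 counts in lesional skin labelled IL-17C+KO, against 18 and 17 counts in uninvolved skin. Its levels in IL-17C+ mice were 4 (2237), 34 (2275) and 115 (2296) counts in lesional skin, against 5, 41 and 0 counts in uninvolved skin. Groups overlapped in both genotypes, and the highest and the lowest value belonged to the 2 biopsies of 1 mouse, 2296. Its fast partner Tnnc2 had 174 and 318 times its FPKM in lesional skin labelled IL-17C+KO, against 1757 and 4624 times in uninvolved skin. In IL-17C+ mice the ratio was 3601 (2237), 193 (2275) and 55.9 (2296) in lesional skin, against 3243 and 1580 in uninvolved skin of mice 2237 and 2275, with no ratio for the uninvolved library at 0 counts.

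The 6 slow genes were all higher in the lesional biopsy of mouse 2296, with a median log2 difference of 3.27. In mice 2237 and 2275 the medians were -0.98 and -0.59, while for IL-17C+KO they were -0.69 (2392) and -3.49 (2465). Tnni1, slow troponin I, had 11.97 CPM in lesional skin of mouse 2296, against 0.838 CPM in its uninvolved skin, and the opposite order in mouse 2237, with 2.23 CPM against 12.05 CPM. Fitted log2 changes of Tnni1, Tnnc1 and Myl3 in IL-17C+ mice were 0.50, 1.304 and 1.31, and all 3 turned negative without mouse 2296 (-0.99, -0.46 and -0.45). For IL-17C+KO 1 of these 6 genes, Myl2, was lower at an unadjusted p under 0.05 (log2 change -3.95 ± 1.55, SE, edgeR, adjusted p = 0.35). Over all genes, 7.31% were lower at that unadjusted p.

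**Figure D4:**
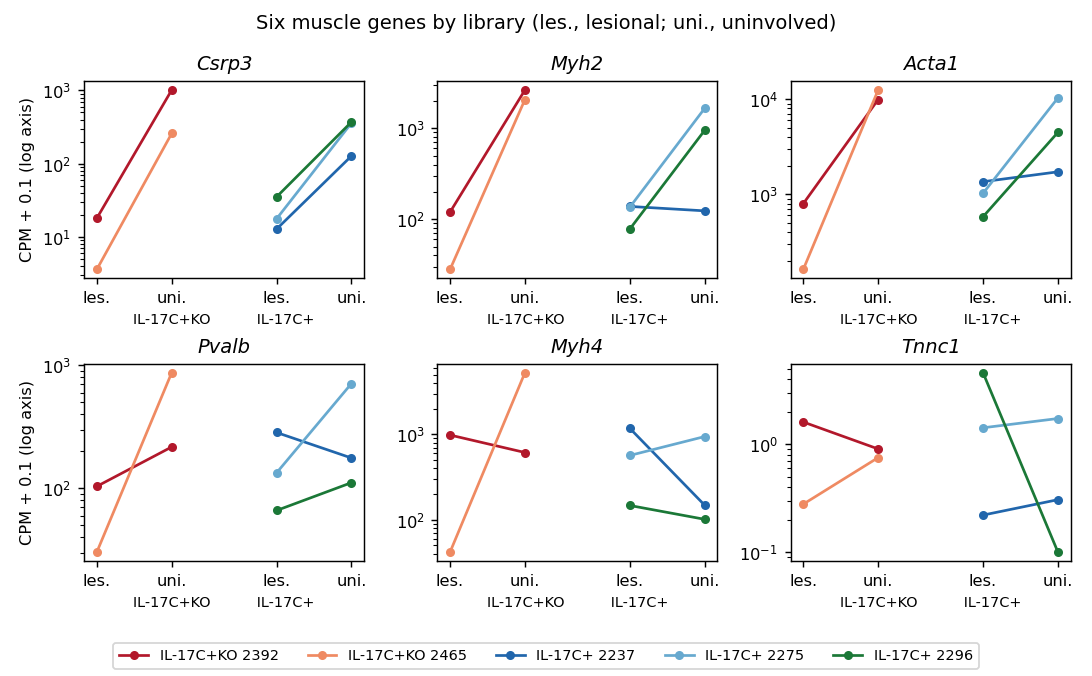
CPM plus 0.1 (logarithmic vertical axes) of Csrp3, Myh2, Acta1, Pvalb, Myh4 and Tnnc1 in lesional and uninvolved skin, with 1 line per mouse. Csrp3 is lower in lesional skin in all 5 mice, Myh4 is higher there in mice 2392, 2237 and 2296 and lower in mice 2465 and 2275, and Tnnc1 has its highest and its lowest value in the 2 biopsies of mouse 2296.

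Genes of calcium handling and excitation were lower by their fitted medians in both genotypes, but not in mouse 2237. All 6 were lower in both mice labelled IL-17C+KO, with a median log2 change of -3.76, and 5 had an unadjusted p under 0.05. Of all genes, 34.7% were lower in both mice and 7.31% were lower at that p. In IL-17C+ mice the fitted median was -1.47, and none had an unadjusted p under 0.05 (2.87% of all genes were lower at that p). The median log2 difference was 0.93 in mouse 2237, where 5 of the 6 were higher in the lesion. All 6 were lower in mice 2275 (median -2.89) and 2296 (median -2.01). Atp2a1, the calcium pump SERCA1 of fast fibres, had 1312 and 215 CPM in lesional skin labelled IL-17C+KO, against 4304 and 10350 CPM in uninvolved skin. For IL-17C+ mice the values were 1467 (2237), 712 (2275) and 559 (2296) CPM in lesional skin, against 644, 5485 and 1883 CPM in uninvolved skin. The skin types overlapped in IL-17C+ mice and not in IL-17C+KO. Its log2 change was -3.65 ± 1.44 (SE, edgeR, adjusted p = 0.35) for IL-17C+KO and -1.27 ± 1.10 (adjusted p = 0.85) for IL-17C+.

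Casq1, the calcium store of the sarcoplasmic reticulum, had log2 changes of -4.12 ± 1.07 (SE, edgeR, adjusted p = 0.24) for IL-17C+KO and -1.49 ± 0.83 (adjusted p = 0.80) for IL-17C+. Ryr1, the channel through which that calcium is released, had -3.87 ± 1.62 (edgeR adjusted p = 0.38) and -1.46 ± 1.38 (adjusted p = 0.86). Pvalb, parvalbumin, buffers calcium in the fastest fibres. It had 104 and 30.2 CPM in lesional skin labelled IL-17C+KO, against 217 and 872 CPM in uninvolved skin, and 284 (2237), 134 (2275) and 65.9 (2296) CPM in lesional skin of IL-17C+ mice, against 176, 711 and 111 CPM in uninvolved skin. Per FPKM of Acta1, Pvalb was higher in the lesional biopsy of every mouse: 23.8% and 34.0% in lesional skin labelled IL-17C+KO, against 3.999% and 12.8% in uninvolved skin, and 38.3% (2237), 23.8% (2275) and 20.8% (2296) in lesional skin of IL-17C+ mice, against 18.7%, 12.6% and 4.53% in uninvolved skin. This ratio was chosen after its values were seen.

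Of the 8 metabolic and other enzymes, all were lower in both mice labelled IL-17C+KO, with an unadjusted p under 0.05 for each and a median log2 change of -4.04. Over all genes, 34.7% were lower in both of these mice, and 7.31% were lower at that p. In IL-17C+ mice the median was -1.40, and 1 gene, Mb, had an unadjusted p under 0.05 (2.87% of all genes were lower at that p). Mb, myoglobin, stores oxygen and is richest in oxidative fibres. It had 47.8 and 32.6 CPM in lesional skin labelled IL-17C+KO, against 1021 and 1205 CPM in uninvolved skin. In IL-17C+ mice it had 85.4 (2237), 71.3 (2275) and 157 (2296) CPM in lesional skin, against 207.5, 933 and 236 CPM in uninvolved skin. The skin types did not overlap in either genotype. Its log2 change was -4.81 ± 0.83 (SE, edgeR, adjusted p = 0.19) for IL-17C+KO and -1.80 ± 0.64 (adjusted p = 0.75) for IL-17C+.

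Ckm, the muscle creatine kinase that buffers ATP, had a log2 change of -4.07 ± 1.25 (SE, edgeR, adjusted p = 0.27) for IL-17C+KO and -1.40 ± 0.89 (adjusted p = 0.81) for IL-17C+. Eno3, the muscle enolase of glycolysis, had -4.21 ± 1.17 (edgeR adjusted p = 0.24) and -1.41 ± 0.83 (adjusted p = 0.80). Pygm, which breaks down muscle glycogen, had -3.81 ± 1.54 (edgeR adjusted p = 0.36) and -1.12 ± 1.10 (adjusted p = 0.86). Over the 14 genes outside the sarcomere, the medians were -3.95 for IL-17C+KO and -1.43 for IL-17C+, against -4.20 and -1.81 for the 11 fast-fibre genes and -1.78 and 0.68 for the 6 slow-fibre genes without Mybpc1. The medians of the fast and the non-sarcomere genes lay close to each other, and that of the scarce slow genes lay apart. By IL-17C+ mouse, the median log2 difference of these 6 slow genes was -0.98 (2237), -0.59 (2275) and 3.27 (2296), positive in mouse 2296 only. The differences between classes were not tested.

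The makeup of the myosin heavy chains was described without a test. Myh2, Myh1, Myh4 and Myh8, the last a perinatal myosin, lie side by side on chromosome 11, and Myh7 on chromosome 14. Their transcripts are of like length, 6016 to 6230 bases, so the length shift touches them alike. As a share of the FPKM of these 5 genes, Myh4 took 68.3% and 20.5% in lesional skin labelled IL-17C+KO, against 6.89% and 40.1% in uninvolved skin. In IL-17C+ mice Myh4 took 67.2% (2237), 55.1% (2275) and 32.7% (2296) in lesional skin, against 23.3%, 12.7% and 3.70% in uninvolved skin. Its share was higher in the lesional biopsy in 4 of 5 mice and lower in mouse 2465, whose uninvolved library had the most muscle RNA of all. The share of Myh2 was lower in the lesional biopsy of all 5 mice, with 8.24% and 13.6% in lesional skin labelled IL-17C+KO, against 29.4% and 15.6% in uninvolved skin, and 7.82%, 13.1% and 17.2% in lesional skin of IL-17C+ mice, against 19.3%, 22.2% and 34.5% in uninvolved skin.

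**Figure D5:**
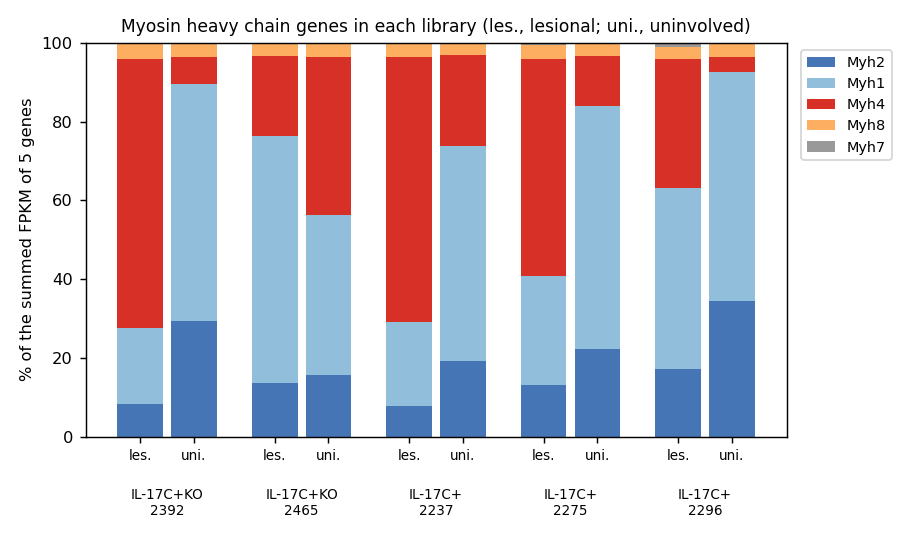
Share of Myh2, Myh1, Myh4, Myh8 and Myh7 in their summed FPKM (percent, vertical axis), with 1 bar per library and the lesional bar left of the uninvolved bar of each mouse. Myh4 takes 32.7% to 68.3% in 4 of 5 lesional libraries and 3.70% to 40.1% in uninvolved libraries; mouse 2465 has the opposite order (20.5% against 40.1%).

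In absolute level Myh4 did not follow most of the other fast genes. Mybpc2 was likewise higher in the lesion of mice 2392, 2237 and 2296 (log2 differences 0.16, 2.21 and 0.19). Actn3 was higher in mice 2392 and 2237 (0.56 and 2.53) and lower in mouse 2296 (-0.36). Both were lower in mice 2465 and 2275. Myh4 had 983 and 41.7 CPM in lesional skin labelled IL-17C+KO, against 614 and 5285 CPM in uninvolved skin. IL-17C+ mice had 1179 (2237), 567 (2275) and 147 (2296) CPM in lesional skin, against 148, 944 and 101 CPM in uninvolved skin. It was higher in the lesional biopsy of 3 mice, and the skin types overlapped in both genotypes. The fitted log2 change was -3.15 ± 2.95 (SE, edgeR, adjusted p = 0.71) for IL-17C+KO and 0.88 ± 1.49 (adjusted p = 0.91) for IL-17C+, and it changed sign without mouse 2465 (0.68) and without mouse 2237 (-0.10).

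Myh2 had 119.6 and 28.0 CPM in lesional skin labelled IL-17C+KO, against 2638 and 2070 CPM in uninvolved skin. Its levels in IL-17C+ mice were 138 (2237), 136 (2275) and 77.9 (2296) CPM in lesional skin, against 124, 1660 and 951 CPM in uninvolved skin. Mouse 2237 alone had no lower value in its lesion, and the skin types overlapped in IL-17C+ mice. The log2 difference of Myh2 in mouse 2237 was 0.16, and -0.555 once the median of tested genes of like length was subtracted. The log2 change of Myh2 was -5.33 ± 1.15 (SE, edgeR, adjusted p = 0.21) for IL-17C+KO and -2.51 ± 0.94 (adjusted p = 0.75) for IL-17C+. Myh1 had -4.83 ± 1.07 (edgeR adjusted p = 0.21) and -2.38 ± 0.89 (adjusted p = 0.75). Reads of these genes can be split or dropped in counting, since 18.9% to 26.9% of the 50-base stretches of Myh1, Myh2, Myh4, Myh8 and Myh7 occur in another annotated transcript. Myh8 held 2.98% to 3.64% of the myosin sum in every library and its transcript shares 21.4% of such stretches, so its level is uncertain.

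Genes for other proteins of fast fibres were set against their partners. Actn3, the alpha-actinin of fast fibres, had 3.80 and 0.885 times the FPKM of Actn2 in lesional skin labelled IL-17C+KO, against 0.128 and 0.998 times in uninvolved skin. In IL-17C+ mice the ratio was 4.44 (2237), 2.61 (2275) and 0.675 (2296) in lesional skin, against 0.499, 0.886 and 0.134 in uninvolved skin. Mybpc2, fast myosin-binding protein C, had 2.17 and 0.468 times the FPKM of Mybpc1 in lesional skin labelled IL-17C+KO, against 0.105 and 0.755 times in uninvolved skin. In IL-17C+ mice that ratio was 1.69 (2237), 0.932 (2275) and 0.383 (2296) in lesional skin, against 0.278, 0.429 and 0.0538 in uninvolved skin. Both ratios were higher in the lesional biopsy of the same 4 mice as the Myh4 share and lower in mouse 2465. Actn3 and Mybpc2 were singled out after their values were seen, and none of these ratios was tested.

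The promoters of the 4 myosin genes on chromosome 11 are shown because these genes lie next to each other and had different values. They run from 250 bases before to 50 after the start, from RefSeq (GRCm38.p6), with a match to the MEF2 box, the site of myocyte enhancer factor 2, in capitals.
Myh2, chr11:67170777-67171076, plus strand: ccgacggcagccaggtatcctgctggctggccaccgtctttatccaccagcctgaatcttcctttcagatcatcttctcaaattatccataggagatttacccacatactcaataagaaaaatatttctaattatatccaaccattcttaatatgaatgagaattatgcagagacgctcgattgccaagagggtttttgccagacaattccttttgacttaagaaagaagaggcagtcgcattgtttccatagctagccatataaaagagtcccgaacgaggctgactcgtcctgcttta
Myh1, chr11:67199852-67200151, plus strand: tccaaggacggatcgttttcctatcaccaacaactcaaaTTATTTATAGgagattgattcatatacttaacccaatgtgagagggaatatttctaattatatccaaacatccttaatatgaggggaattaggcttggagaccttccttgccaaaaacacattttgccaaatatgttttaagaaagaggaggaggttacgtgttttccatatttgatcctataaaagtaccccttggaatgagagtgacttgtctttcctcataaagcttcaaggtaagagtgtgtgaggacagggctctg
Myh4, chr11:67237562-67237861, plus strand: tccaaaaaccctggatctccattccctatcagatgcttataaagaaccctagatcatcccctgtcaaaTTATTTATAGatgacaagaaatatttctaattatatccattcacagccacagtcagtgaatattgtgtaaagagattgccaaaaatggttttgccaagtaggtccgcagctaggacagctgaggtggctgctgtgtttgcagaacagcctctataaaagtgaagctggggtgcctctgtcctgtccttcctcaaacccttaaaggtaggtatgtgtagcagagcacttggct
Myh8, chr11:67276874-67277173, plus strand: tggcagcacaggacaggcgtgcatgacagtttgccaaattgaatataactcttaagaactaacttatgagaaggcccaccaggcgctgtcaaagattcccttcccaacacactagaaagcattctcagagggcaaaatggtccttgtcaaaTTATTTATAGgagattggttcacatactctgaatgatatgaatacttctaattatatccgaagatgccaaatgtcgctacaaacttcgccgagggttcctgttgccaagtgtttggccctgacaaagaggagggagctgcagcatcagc
Myh1, Myh4 and Myh8 hold the same box, TTATTTATAG, which starts at -211, -182 and -99 from the start and is present on either strand in 38 of all 32851 promoters (0.116%). Myh2 holds no match; its closest stretch, at -168, differs from the box of Myh1 by T5C and T6C, counted from 1 at the 5′ end of the box. A MEF2 box was found in 17.07% of the 41 promoters of the muscle genes and 3.19% of all promoters, and a CArG box, the site of serum response factor, in 12.2% and 1.63%. TATAAA was found in 21.95% and 13.62%, and CATTCC, the site of TEAD factors, in 31.71% and 14.66%, on either strand and with overlaps between motifs allowed. These matches describe the letters in the window and were not set against the expression values.

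The fitted lesional change was more negative in the libraries labelled IL-17C+KO than in IL-17C+ mice for all 43 genes, and none passed the test of the difference. The median difference of log2 changes was -2.50, with a range of -4.03 to -1.16, against 0.00 over all genes. With edgeR 0 of 16083 genes passed (0% of those tested), and 188 had an unadjusted p under 0.05, 6 of them muscle genes, all more negative for IL-17C+KO, where 0.597% of all genes were (0.572% of all genes had a more positive change). Differences were negative for 50% of all genes. Csrp3 had a difference of -2.32 ± 0.47 (SE, edgeR, adjusted p = 1.0), Mylpf -2.58 ± 0.99 (adjusted p = 1.0) and Mb -3.01 ± 0.97 (adjusted p = 1.0). DESeq2 called 6 genes, among them Csrp3 (adjusted p = 0.0322; over all alternatives 0.0322 to 1.0). The median difference was -0.95 without mouse 2465 and -4.01 without mouse 2392.

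Between genotypes, lesional skin labelled IL-17C+KO had lower fitted levels than IL-17C+ lesional skin for 41 of the 43 genes, with a median log2 change of -0.79; 49.3% of all genes had a negative value. None of 15691 genes passed with edgeR (0% of those tested; 1145 had an unadjusted p under 0.05), and DESeq2 called 213, none of them a muscle gene. Groups did not overlap, with IL-17C+KO lower, for 5 of the 43 genes, where 13.2% of all genes were so. Mb was the single muscle gene with an unadjusted p under 0.05 (7.3% of all genes, 2.53% lower and 4.77% higher), at 47.8 and 32.6 CPM in IL-17C+KO lesions, against 85.4, 71.3 and 157 CPM in IL-17C+ lesions (log2 change -1.35 ± 0.41, SE, edgeR, adjusted p = 0.59). The median was -0.03 without mouse 2465 and -2.48 without mouse 2392. The lesion of mouse 2465 was the lowest of all in muscle share, and that of 2392 lay among the IL-17C+ lesions.

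In uninvolved skin the order was the other way. Libraries labelled IL-17C+KO had higher fitted levels than IL-17C+ libraries for 42 of the 43 genes, with a median log2 change of 1.11, and Tnni1 was the exception at -0.51; 51.1% of all genes had a negative value. None of 15568 genes passed with edgeR (0% of those tested; 581 had an unadjusted p under 0.05), and DESeq2 called 11, none of them a muscle gene. Groups did not overlap, with IL-17C+KO higher, for 13 of the 43, where 10.5% of all genes were so. Myh4 (log2 change 2.89 ± 1.19, SE, edgeR, adjusted p = 0.85) and Mylk2, the kinase of skeletal myosin light chains (1.62 ± 0.68, adjusted p = 0.85, chosen after its values were seen), had an unadjusted p under 0.05, as did 3.73% of all genes (1.91% higher and 1.82% lower). Mylk2 had 217 and 536 CPM in uninvolved skin labelled IL-17C+KO, against 46.4 (2237), 221 (2275) and 101 (2296) CPM in IL-17C+ uninvolved skin. Without mouse 2275 the median was 2.16, and edgeR called 241 genes, 7 of them muscle genes. The part of age, which the labels do not give per mouse, was not tested.

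Other muscle genes were followed in the same biopsies. Of a list of 38 further skeletal muscle genes that holds none of the 43, 33 were lower at an unadjusted p under 0.05 for IL-17C+KO (median log2 change -4.16; 7.31% of all genes were lower) and 9 for IL-17C+ (median -1.78; 2.87% of all genes). Pfkm, the muscle phosphofructokinase, had 102 and 40.1 CPM in lesional skin labelled IL-17C+KO, against 420 and 1240 CPM in uninvolved skin. Cmya5, and Myom2, a protein of the M-band, had log2 differences per mouse of -2.00 and -3.35 in mouse 2392 and -5.34 and -6.13 in mouse 2465. In IL-17C+ mice Pfkm had 184.5 (2237), 96.8 (2275) and 76.1 (2296) CPM in lesional skin, against 109, 679 and 155 CPM in uninvolved skin. Cmya5 and Myom2 had log2 differences of 1.56 and 0.41 in mouse 2237, -3.25 and -3.35 in mouse 2275 and -2.37 and -2.48 in mouse 2296. All 3 genes were thus higher in the lesion of mouse 2237 and lower in that of the other 4 mice. Ankrd2, an ankyrin-repeat protein of stretched muscle named here after its values were seen, was lower in the lesion of every mouse, 2237 included, as Csrp3 was. It had 18.7 and 1.07 CPM in lesional skin labelled IL-17C+KO, against 413 and 96.0 CPM in uninvolved skin, and 8.28 (2237), 9.92 (2275) and 22.4 (2296) CPM in lesional skin of IL-17C+ mice, against 43.3, 176 and 272.5 CPM in uninvolved skin.

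Of 14 tested genes for myogenic regulators and the neuromuscular junction, 8 were lower at an unadjusted p under 0.05 for IL-17C+KO (median log2 change -3.03; 7.31% of all genes were lower) and 2 for IL-17C+ (median -1.62; 2.87% of all genes). Myf6, a myogenic factor of mature fibres, had 4.75 and 0.491 CPM in lesional skin labelled IL-17C+KO, against 24.5 and 34.7 CPM in uninvolved skin. For IL-17C+ mice the values were 3.46 (2237), 2.06 (2275) and 4.36 (2296) CPM in lesional skin, against 4.13, 47.2 and 8.09 CPM in uninvolved skin. Mstn, the growth inhibitor myostatin, had 7.995 and 3.39 CPM in lesional skin labelled IL-17C+KO, against 12.9 and 82.1 CPM in uninvolved skin. In IL-17C+ mice Mstn had 12.8 (2237), 6.73 (2275) and 9.69 (2296) CPM in lesional skin, against 11.5, 46.6 and 2.76 CPM in uninvolved skin, so that it was higher in the lesion of mice 2237 and 2296.

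Markers of other cell types were set beside the muscle genes. Of the 8 heart muscle genes, Tnni3, Nppa, Myl7, Mybpc3 and Actc1 had at most 2.19 CPM in any library, and Myh6, Tnnt2 and Nppb reached 4.30, 14.4 and 67.8 CPM. Of the 10 adipocyte genes, the median log2 difference was 0.78 in mouse 2392, with all 10 higher in the lesion, and -3.12 in mouse 2465, with all 10 lower. In IL-17C+ mice it was -0.08 (2237), -1.14 (2275) and -0.66 (2296). In the lesion of mouse 2392 muscle genes were thus lower and fat genes higher. The summed adipocyte level was 6572 and 799 CPM in lesional skin labelled IL-17C+KO, against 4061 and 6651 CPM in uninvolved skin, and 2320 to 3313 CPM in lesional skin of IL-17C+ mice, against 4730 to 5971 CPM in uninvolved skin.

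The 10 Schwann cell and nerve genes had median log2 differences of -1.01 (2392), -1.12 (2465), -0.14 (2237), -0.29 (2275) and -0.48 (2296). The 4 tested brown adipocyte genes had medians of -0.73, -1.80, -0.21, -1.03 and -0.66 in the same order of mice. Ucp1, also on that list, had 13 counts over the 10 libraries and was left out of these medians. The 7 epidermis genes had medians of -0.43, 0.18, 0.68, -0.25 and -0.77 in that order. The 10 genes of inflamed epidermis and neutrophils had medians of 2.82 (2392), 5.37 (2465), 0.70 (2237), 3.86 (2275) and 2.35 (2296), the largest where the muscle median was lowest and the smallest in mouse 2237. Their summed level was 13780 and 22750 CPM in lesional skin labelled IL-17C+KO, against 2867 and 438 CPM in uninvolved skin, and 7305 to 30770 CPM in lesional skin of IL-17C+ mice, against 567 to 6860 CPM in uninvolved skin. The sum of 8 fibroblast and fascia genes was 7318 and 21560 CPM in lesional skin labelled IL-17C+KO, against 2563 and 3790 CPM in uninvolved skin, and 4472 to 9601 CPM in lesional skin of IL-17C+ mice, against 2257 to 3459 CPM in uninvolved skin. Collagens weighed heavily in it: Col3a1 held 11880 and Col1a1 6720 of the 21560 CPM. Median log2 differences of the 8 genes were 0.44 (2392), 0.76 (2465), 0.51 (2237), 0.43 (2275) and 0.92 (2296). In mouse 2465 5 of the 8 were higher in the lesion and 3 lower. The part that these shifts in the other tissues of the biopsy have in the muscle values was not tested.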

How the data were processed

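RNA from full-thickness dorsal skin was sequenced on an Illumina Genome Analyzer IIx. Per the submitters' processing notes, cutadapt 1.6, TopHat2 2.0.12, HTSeq and Cufflinks 2.2.1 were used with the mm10 genome; strand setting and annotation: not given in the sources used here. The deposited tables hold, per the file headers, a raw read count and an FPKM value (normalised by the authors to length and depth) for 24358 gene symbols. Library totals ran from 21056850 to 31072491 counts, which were tested as deposited.

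Genes were kept by edgeR's filterByExpr, libraries scaled by TMM and robust quasi-likelihood models fitted (R 4.3.3, edgeR 4.0.16), with Benjamini-Hochberg adjustment over all genes tested at 0.05. A single model of all 10 libraries, with each mouse as a block, gave the lesional change for either genotype and their difference. Its spread was estimated over all 5 mice together. Genotypes were compared within each skin type, with 5 libraries each. The SE printed is the absolute log2 change divided by the square root of the F statistic of the test. The pairing rests on both biopsies coming from the same animal. Their deviations from the group means correlated at -0.08 (2392), -0.08 (2465), -0.12 (2237), 0.04 (2275) and -0.07 (2296). With 2 mice in a group the deviations are mirror images, so the values of 2392 and 2465 are equal by construction. Those of the 3 IL-17C+ mice also depend on each other, so these correlations cannot check the pairing of a single mouse. CPM values are scaled by TMM, differences per mouse use a prior count of 2, and FPKM served for comparisons between genes. The Il17c values and the limits at a count of 0 use library totals without TMM. Floors cover counting error only. Alternatives were DESeq2 1.42.0, limma-voom and limma 3.58.1 on log2(FPKM + 1) and log2(FPKM + 0.1), other scalings, no filter, no block and leaving out each mouse. No library repeated another, with correlations of log CPM of 0.837 to 0.986. A transcript length was found for 96.4% of tested genes (GENCODE M21, GRCm38).

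The 43 genes, their role classes and all lists were chosen with earlier results of these data known. The rule named members past the threshold, the 4 with the highest mean CPM in each class, Csrp3 and Des, the 3 lowest and 3 highest relative changes per genotype, members with a count of 0, and the 3 most abundant genes of other lists. Tnnc2, Myh7, Myh8, Actn3, Mybpc2, Mylk2, Ankrd2, Synpo2, Lmod1 and, in the closing observations, Chrng, Chrnd, Musk, Myod1, Rapsn, Chrne, Myf5 and Myh3 fall outside it and were chosen after their values were seen. Acta2, Il6, Il17c, Tnni3, Nppa, Myl7, Mybpc3, Actc1 and Ucp1 were also named outside the rule. For the adipocyte, brown adipocyte, nerve, epidermis, inflamed epidermis and blood lists the most abundant genes were not printed. Of the fibroblast list only Col3a1 and Col1a1 were.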

Additional observations from a re-analysis of the deposited data

How the results depend on the processing

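Single genes were tallied over the alternatives for a limited set. It held the 27 members named by the rule, with Actn3 and Mybpc2, for lesional against uninvolved skin in either genotype. Csrp3 was added for the difference between genotypes, Mb for lesional skin, and Myh4 and Mylk2 for uninvolved skin. Within this set 25 values changed sign, 26 passed the threshold newly and 7 no longer did. Changes of all other genes, muscle genes among them, are not in this tally. Groups of 2 and 3 mice and the unequal muscle share of uninvolved biopsies limit every comparison. For lesional against uninvolved skin labelled IL-17C+KO, the 2 calls (1 muscle gene) became 1 (0 muscle genes) with library totals only, 5 with no filter, 1157 (32) with DESeq2, 1 with log2(FPKM + 1) and 0 (0) without the replicate block, without mice 2237 and 2296 (an alternative chosen after seeing the data) or with the IL-17C+KO libraries alone and their replicate block. Leaving out 1 mouse gave 0 to 11 calls (0 to 1 muscle genes; 11 without mouse 2237) and medians of -5.76 to -2.50. For IL-17C+, DESeq2 called 247 genes (6 muscle genes), and the median was -3.06 without mice 2237 and 2296 and -2.42 to -0.71 without 1 mouse. For the difference between genotypes DESeq2 called 6 genes (1 muscle gene), and medians without 1 mouse were -4.01 to -0.95. Between genotypes, lesional skin gave 1 call with no filter and 213 with DESeq2, and medians of -2.48 to -0.033 without 1 mouse. Uninvolved skin gave 11 calls with DESeq2, and 0 to 241 calls (0 to 7 muscle genes) and medians of 0.71 to 2.16 without 1 mouse. The median share of slow-fibre genes was 4.79% in CPM, against 1.61% in FPKM.

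Csrp3 for IL-17C+KO lost its call with library totals (edgeR adjusted p = 0.063), without the replicate block (0.12), without mice 2237 and 2296 (0.18) and with the IL-17C+KO libraries alone (0.18); the cause was not tested. Signs changed for the following genes. In IL-17C+ mice Actn3 was 0.009 with library totals, 0.08 with limma-voom, 0.105 with log2(FPKM + 1) and 0.116 with log2(FPKM + 0.1), and Mybpc2 was -0.684 without the replicate block. Without mice 2237 and 2296, Myh4 was -0.761, Myl3 -0.954, Tnnc1 -0.329 and Mybpc2 -2.342. Leaving out 1 mouse gave -0.098 to 1.77 for Myh4, -2.571 to 1.112 for Myl2, -0.446 to 3.569 for Myl3, -0.991 to 2.067 for Tnni1, -0.463 to 3.06 for Tnnc1, -1.261 to 1.092 for Actn3 and -1.069 to 1.207 for Mybpc2. For IL-17C+KO Tnnc1 was 0.034 with log2(FPKM + 1) and 0.228 without the replicate block. Leaving out mouse 2392 and mouse 2465 in turn gave -6.991 and 0.68 for Myh4, -2.431 and 0.318 for Myl3, -1.849 and 0.903 for Tnnc1, -6.148 and 0.556 for Actn3 and -6.39 and 0.159 for Mybpc2.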

Other observations

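Among 15 genes of myogenic regulators and the neuromuscular junction, 10 had their highest level in the uninvolved biopsy of mouse 2275 and 5 in that of mouse 2465, labelled IL-17C+KO; this was looked at after the values were seen. Chrng, the fetal subunit of the acetylcholine receptor, was at 3.35 CPM in uninvolved skin of mouse 2275 and at 0.0602 CPM in the lesional library of mouse 2237, with no count in the other 8 libraries (86 counts in all). Myog, a myogenic factor of differentiating muscle cells, had 10.4 and 15.8 CPM in uninvolved skin labelled IL-17C+KO, against 40.8 CPM in uninvolved skin of mouse 2275 and 0.949 and 3.40 CPM in the other uninvolved IL-17C+ libraries. Chrnd and Musk, a further receptor subunit and a kinase of the junction, were also highest in mouse 2275, at 6.77 and 7.41 CPM. Others were not. Uninvolved skin of mouse 2465 was higher than that of mouse 2275 for Myod1 (15.2 against 10.6 CPM), Rapsn (15.3 against 13.4), Chrne (3.11 against 2.55) and Myf5 (0.806 against 0.717). The developmental myosin Myh3 was also higher in uninvolved skin labelled IL-17C+KO, with 56.5 and 66.5 CPM, against 48.2 CPM in mouse 2275. Myh8 was counted at 322 and 481 CPM, against 248 CPM in mouse 2275. Myh8 held 2.98% to 3.64% of the myosin sum in every library and shares 21.4% of its 50-base stretches, so its level is uncertain. Whether its counts follow Myh8 itself or the adult myosins was not tested. The share of the 43 muscle genes was 7.91% in uninvolved skin of mouse 2465, against 5.78% in that of mouse 2275.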
